A study of Mus musculus with 47 samples.

Results

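Control mouse embryonic stem cells (ESCs) harvested at 96 h were compared with control ESCs harvested at 48 h, across all genes measured by RNA sequencing. The samples were chosen by their titles, and they are 4 of the 47 samples of the series. Libraries 1 and 2 of the 96 h group and libraries 1 and 2 of the 48 h group all came from E14Tg2A, an established mouse ESC line, transfected with the control siRNA siC. Every ESC group was grown in serum-free N2B27 medium with PD0325901, a MEK inhibitor, CHIR99021, a GSK3 inhibitor, and the cytokine LIF. The labels give neither the event from which the hours were counted nor whether libraries 1 and 2 came from separate cultures, so the p-values reflect only how far these libraries vary, and that may be technical variation. Set beside them are 4 libraries of the same line transfected with siTdg, an siRNA against the DNA repair gene Tdg, 2 at each time, and 2 siC libraries of embryoid bodies (EBs) at day 11. The 96 h and the 48 h values were deposited in separate tables, each scaled on its own, so time and table cannot be told apart in any difference below.

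The MEK and GSK3 inhibitors with LIF hold ESCs in the naive state, the condition of the preimplantation epiblast. MEK inhibition silences signalling through ERK, which would otherwise prime the cells for differentiation. GSK3 inhibition stabilises β-catenin, the effector of Wnt signalling, and LIF acts through STAT3. A control siRNA has no intended target. The comparison addresses how far the control transcriptome itself differed between the harvest times used for the knockdown.

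Levels are in RPKM, reads scaled by gene length in kilobases and by library depth, as deposited by the authors. Differences are log2 values, 96 h minus 48 h, of RPKM plus a pseudocount of 0.5, after each library was set to the same median, and they understate the change of genes with low values. The table held 24507 genes, of which 12210 had a mean of at least 0.5 RPKM over the 4 control libraries and were tested. A library recovered as whole reads held between 27781941 and 36551129 reads.

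No gene passed the test. With limma, fitted on 8 libraries, 0 of 12210 genes had an adjusted p under 0.05 (Benjamini-Hochberg) in either direction, and the lowest adjusted p was 1.00. At an unadjusted p under 0.05 there were 238 genes, 1.95% of those tested, while on the recovered reads limma-voom called 0 genes as well and found 245 at that unadjusted level. This fit had no term for library number, although same-numbered siC libraries of the 2 times deviated together (correlation 0.565). With library number as a block on the 8 libraries 0 genes were called too, but many more were at that unadjusted level, as given in the last section. The differences were small in most genes, with a median of 0.03 and quartiles of -0.14 and 0.19 on the log2 scale, against a median standard error of 0.28. In simulated data of this size and spread, a 4-fold change was called for 63.3% of 98 changed genes and a 2-fold change for 6.12% of 98, so most differences of the size met here were below what 2 libraries a group could show. For a single value, the exact permutation test of 2 libraries against 2 cannot go below p = 0.333 (two-sided).

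A second way to read the data is to ask whether both 96 h libraries lay on the same side of both 48 h libraries, on the scale with equal medians. This held for 1356 genes that were higher at 96 h, 11.1% of all genes tested, and for 1255 that were lower, 10.3%, and every count for a list below is to be read against these shares. With a difference of at least 1 on the log2 scale as well, 68 genes were higher (0.557%) and 27 were lower (0.221%). Of all differences, 6636 (54.3%) lay above 0 and 5574 (45.7%) below. Since nothing passed the test, the genes and lists below are given as values, with the words higher and lower for the order of the libraries. Of each list, the 3 members with the highest mean RPKM were named by rule. Its other named members were picked after their values were seen. An unadjusted p printed for such a member (limma) is therefore a description and no support for a difference.

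The libraries of one time differed from each other by more than the times did. The SD over genes of library 2 minus library 1 was 0.595 on the log2 scale at 96 h, with 1049 genes at least 1 apart, and 0.472 at 48 h, with 536 genes. The SD of the difference between the times, which is between means of 2 libraries, was 0.294, with 127 genes. At 96 h the difference between libraries followed gene length. Its median was 0.48 in the shortest class of 4073 genes (median length 1.38 kb), 0.11 in the middle class of 4066 (2.81 kb) and -0.25 in the longest of 4071 (5.10 kb). At 48 h the same medians were 0.03, -0.01 and -0.08. Between the times they were 0.13, 0.03 and -0.07 with all 4 libraries, 0.37, 0.09 and -0.19 without 96 h library 1, and -0.11, -0.03 and 0.06 without 96 h library 2. Lists of short genes are therefore given below with and without these libraries.

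**Figure D1:**
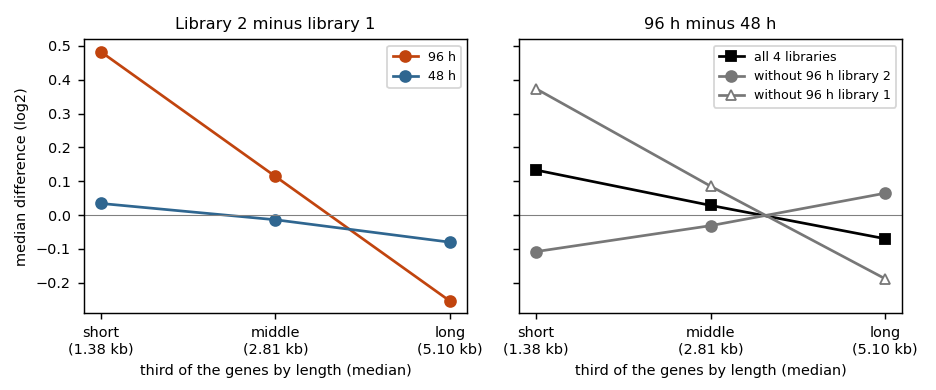
Median log2 difference over the genes of 3 length classes, short to long. Left, library 2 minus library 1 within 96 h and within 48 h. Right, 96 h minus 48 h with all 4 libraries and without either 96 h library. At 96 h, library 2 was 0.48 above library 1 for short genes and 0.25 below it for long genes, and the slope between the times turned round with the 96 h library that was left out.

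The cells at both times had the transcriptome of naive ESCs. Pou5f1, the POU factor that pluripotent cells require, stood at 771 and 1253 RPKM at 96 h, against 761 and 941 RPKM at 48 h. Nanog, the homeodomain factor that sustains self-renewal, stood at 274 and 482 RPKM at 96 h, against 289 and 372 RPKM at 48 h, and Zfp42 (Rex1), a reporter of the naive state, at 367 and 728 RPKM at 96 h, against 328 and 494 RPKM at 48 h. In all 3 genes 96 h library 2 was the highest, and 96 h library 1 lay within or next to the range of the 48 h libraries. Dppa5a, an RNA-binding protein of pluripotent cells and the most abundant naive marker, had 2165 and 3958 RPKM at 96 h, against 2556 and 2803 RPKM at 48 h. Over the 27 naive genes 14 of 27 differences lay above 0 and 13 below, the median was 0.01, and 3 were higher and 1 lower in both libraries. Rex2, a zinc finger gene of ESCs with 55.3 and 36.7 RPKM at 96 h, against 30.4 and 32.9 RPKM at 48 h, was one of the 3, and its difference was 0.57 (SE 0.23). Klf2, a Krüppel-like factor of the naive network, was the one lower, with 82.5 and 85.4 RPKM at 96 h, against 111 and 98.3 RPKM at 48 h and a difference of -0.24 (SE 0.17).

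Esrrb, a nuclear receptor downstream of GSK3 inhibition, had 190.5 and 116 RPKM at 96 h, against 212 and 167 RPKM at 48 h, and its difference was -0.27 (SE 0.36). Tfcp2l1, a LIF target of the naive network, had 163 and 76.7 RPKM at 96 h, against 174 and 144 RPKM at 48 h, with a difference of -0.43 (SE 0.47). Klf4, another LIF target, had 94.0 and 81.5 RPKM at 96 h, against 77.0 and 91.4 RPKM at 48 h, and Sox2, the partner of Pou5f1, had 111 and 86.7 RPKM at 96 h, against 109.5 and 78.9 RPKM at 48 h. In each of these 4 genes the libraries of the 2 times overlapped. Among the 10 genes of core pluripotency 6 of 10 differences lay above 0 and 4 below, the median was 0.21, and none was free of overlap. The third of its most abundant members, the Nodal co-receptor Tdgf1, had 239 and 429 RPKM at 96 h, against 237 and 310.4 RPKM at 48 h. Of 19 genes of formative and primed pluripotency 16 passed the filter, with 9 differences above 0, 7 below and a median of 0.01, and 1, Igfbp3, lower in both libraries. The ETS factors Etv5 and Etv4 and the receptor inhibitor Spry2, its most abundant members, differed by -0.07, -0.16 and 0.01.

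Markers of differentiated cells were low at both times. Summed over the 17 endoderm genes, levels were 18.9 and 10.7 RPKM at 96 h and 17.3 and 11.99 RPKM at 48 h, beside 476 and 337 RPKM in the EBs. Of those genes 11 were under a mean of 0.5 RPKM in the ESCs and Ttr was at 0 in all 4 libraries. The 13 mesendoderm genes summed to 12.1 and 10.9 RPKM at 96 h and 12.6 and 11.8 RPKM at 48 h, beside 90.9 and 55.4 RPKM in the EBs, the 13 trophoblast genes to 28.6 and 49.3 RPKM at 96 h and 45.1 and 55.1 RPKM at 48 h, beside 576 and 236 RPKM in the EBs, and the 12 fibroblast genes to 2.21 and 3.52 RPKM at 96 h and 2.98 and 7.13 RPKM at 48 h, beside 5408 and 1444 RPKM in the EBs. Of these 3 lists 9, 6 and 9 genes were under 0.5 RPKM in the ESCs, and the trophoblast gene Tpbpa was at 0. In the same lists the ranges of the 2 times overlapped. EB values came from a table of their own and set only the scale of these sums.

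Neural genes summed to 64.0 and 50.9 RPKM at 96 h and 101 and 55.8 RPKM at 48 h, beside 21.3 and 6.88 RPKM in the EBs, of which most was Tubb3, a tubulin that ESCs also express, with 59.9 and 48.6 RPKM at 96 h, against 94.5 and 51.9 RPKM at 48 h. Fabp7 was at 0 and 10 of the 13 neural genes were under 0.5 RPKM. Genes of blood and endothelium summed to 56.8 and 43.4 RPKM at 96 h and 69.1 and 48.03 RPKM at 48 h, beside 52.5 and 344 RPKM in the EBs, most of it the adhesion molecule Pecam1, which ESCs express, with 45.3 and 38.0 RPKM at 96 h, against 61.9 and 44.0 RPKM at 48 h. There the globins Hbb-bh1 and Hba-x were at 0 and 9 of 13 genes were under 0.5 RPKM. Among the 3 most abundant markers of each list, Lamb1 and Cxcr4 (endoderm) differed by -0.17 and -0.27, Eomes (mesendoderm and trophoblast) by -0.43, Nes and Sox1 (neural) by -0.64 and -0.19, Tfap2c (trophoblast) by -0.55 and Kdr (endothelium) by 0.25. Col4a1, Gsc, T, Krt8, Pdgfrb, Col1a1, Twist1 and Tek, the others, differed by 0.46, -0.02, 0.33, 0.03, -0.74, -0.29, 0.12 and 0.65. In bulk RNA fewer cells of a type and less RNA per cell cannot be told apart.

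The smallest p of all genes belonged to Cdx1, a caudal homeobox gene that is a direct target of Wnt signalling. Cdx1 had 8.68 and 8.86 RPKM at 96 h, against 25.6 and 27.3 RPKM at 48 h, or 8.77 ± 0.128 RPKM at 96 h and 26.4 ± 1.19 RPKM at 48 h (SD, n = 2 each). Both 96 h libraries lay at about the same level, and both 48 h libraries lay far above them. The difference was -1.47 (SE 0.20), with an unadjusted p of 0.000168 and an adjusted p of 1.00 (limma). Other Wnt targets showed no such gap. Axin2, the feedback inhibitor of the pathway, had 20.2 and 9.43 RPKM at 96 h, against 17.0 and 16.1 RPKM at 48 h, and its libraries overlapped. Ccnd1, the cyclin D1 gene, was higher in both libraries, with 42.1 and 39.8 RPKM at 96 h, against 26.5 and 31.5 RPKM at 48 h and a difference of 0.57 (SE 0.17). Of 18 Wnt response genes 11 passed the filter, 6 of 11 differences lay above 0 and 5 below, and the median of 0.03 became -0.35 without 96 h library 1 and 0.43 without 96 h library 2. The other highest members, the transcription factor Tcf7 and the secreted Wnt inhibitor Notum, differed by -0.07 and 0.52.

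Targets of the other signals in the medium gave small differences. Of 24 genes of ERK feedback and the immediate early response 17 passed the filter, 6 of 17 differences lay above 0 and 11 below, the median was -0.04, and 3 were lower in both libraries. These 3 were low in level. Jun, an AP-1 subunit, had 2.18 and 1.09 RPKM at 96 h, against 3.31 and 2.47 RPKM at 48 h, Phlda1 had 1.38 and 1.08 RPKM at 96 h, against 2.25 and 1.68 RPKM at 48 h and Ier3 had 2.10 and 1.38 RPKM at 96 h, against 2.58 and 2.21 RPKM at 48 h. Ier2, with Etv5 and Spry2 one of the most abundant, differed by -0.04. Of the 13 LIF and STAT3 targets 4 of 13 differences lay above 0 and 9 below, with a median of -0.11, and 2 were lower in both libraries. Bcl3, an IκB family protein, had 25.9 and 20.6 RPKM at 96 h, against 43.8 and 28.5 RPKM at 48 h, and Pim1, a survival kinase, had 36.5 and 40.01 RPKM at 96 h, against 62.0 and 48.7 RPKM at 48 h. Socs3, the feedback inhibitor of STAT3 signalling, had 48.7 and 35.5 RPKM at 96 h, against 66.7 and 40.8 RPKM at 48 h, and its libraries overlapped. The list's median was -0.34 without 96 h library 1 and 0.02 without 96 h library 2.

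Genes of Nodal and BMP signalling split in both directions. Id3, an inhibitor of basic helix-loop-helix factors and a BMP target, was higher, with 20.4 and 40.1 RPKM at 96 h, against 10.8 and 18.8 RPKM at 48 h and a difference of 1.05 (SE 0.50). Its relative Id1 was lower, with 2.27 and 4.06 RPKM at 96 h, against 6.03 and 4.69 RPKM at 48 h and a difference of -0.64 (SE 0.43). Both genes are classical targets of the same SMADs, and in these libraries they stood on opposite sides. Lefty2, a secreted Nodal inhibitor, had 11.9 and 12.7 RPKM at 96 h, against 16.4 and 22.1 RPKM at 48 h, a difference of -0.54 (SE 0.23). Nodal itself had 53.2 and 58.9 RPKM at 96 h, against 52.6 and 47.3 RPKM at 48 h, and Gdf3, a related ligand, had 48.1 and 77.7 RPKM at 96 h, against 45.7 and 56.0 RPKM at 48 h. Of 15 genes 14 passed the filter, 7 of 14 differences lay above 0 and 7 below, with a median of 0.01, 2 higher and 4 lower in both libraries.

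Genes that host small nucleolar RNAs (snoRNAs) had the highest median of the 31 lists drawn up by function. snoRNAs guide the chemical modification of ribosomal RNA, and in mammals most are cut from the introns of host genes. Many hosts of the Snhg family code for no protein, carry a 5′ terminal oligopyrimidine tract like that of ribosomal protein genes, and their spliced transcripts are removed by nonsense-mediated decay as they are translated. The start regions of 10 hosts, chosen after their values were seen, are printed to show where such a tract stands or is missing. Each line gives 25 bases before the annotated start and 15 from the start on, from RefSeq promoters (GRCm38.p6), and capitals mark an unbroken run of at least 6 C or T that reaches within 5 bases of the start:
Snhg9 (chr17:24719951-24719990, minus strand): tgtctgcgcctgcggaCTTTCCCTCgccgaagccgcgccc
Snhg12 (chr4:132308653-132308692, plus strand): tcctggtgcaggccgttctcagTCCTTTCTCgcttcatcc
Gas5 (chr1:161035141-161035180, plus strand): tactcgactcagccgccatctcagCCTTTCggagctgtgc
Snhg1 (chr19:8723462-8723501, plus strand): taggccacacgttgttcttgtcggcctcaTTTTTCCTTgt
Snhg7 (chr2:26640230-26640269, minus strand): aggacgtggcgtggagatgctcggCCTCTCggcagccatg
Snhg8 (chr3:123508322-123508361, minus strand): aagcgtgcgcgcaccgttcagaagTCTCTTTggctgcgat
Snhg5 (chr9:88522883-88522922, minus strand): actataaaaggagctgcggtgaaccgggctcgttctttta
Snhg3 (chr4:132353672-132353711, minus strand): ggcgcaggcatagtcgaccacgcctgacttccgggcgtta
Zfas1 (chr2:167062909-167062948, plus strand): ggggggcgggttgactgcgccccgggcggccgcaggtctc
Dancr (chr5:74093035-74093074, plus strand): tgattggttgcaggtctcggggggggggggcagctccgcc
The run reaching within 5 bases of the start was found in the first 6 and not in the last 4 of these windows. In Snhg5 a run of C and T lies further downstream and is left in lower case. Of the 18 hosts tested 14 had a promoter in the table, and 8 of those (57.1%) had the run, as did 30 of 55 ribosomal protein genes (54.5%) and 24% of 27025 promoters in all. The run was searched on the strand of the gene only, and a match describes letters, not a proven tract.

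All 18 hosts that passed the filter, of 19 in the table, had a difference above 0, and 11 were higher in both 96 h libraries than in either 48 h library. Their median difference was 0.93, against 0.03 over all genes. The filter could fix the direction of 1 of them, Snhg9, whose mean reached 0.5 RPKM at 96 h only. Gas5, which hosts a series of C/D box snoRNAs, had 45.0 and 53.1 RPKM at 96 h, against 20.1 and 33.6 RPKM at 48 h, and its difference was 0.97 (SE 0.40) with an unadjusted p of 0.0468. Snhg5 had 66.6 and 86.8 RPKM at 96 h, against 21.4 and 59.5 RPKM at 48 h, a difference of 1.15 (SE 0.60). Snhg1, the most abundant host, had 158 and 269 RPKM at 96 h, against 51.1 and 168 RPKM at 48 h, and its difference of 1.22 (SE 0.76) came with an overlap of 96 h library 1 and 48 h library 2. Snhg15, also among the most abundant, had 43.5 and 64.2 RPKM at 96 h, against 20.1 and 38.6 RPKM at 48 h. Snhg9, one of the shortest hosts, had 1.12 and 1.34 RPKM at 96 h, against 0.308 and 0.193 RPKM at 48 h, or 1.23 ± 0.158 RPKM at 96 h and 0.251 ± 0.0811 RPKM at 48 h (SD, n = 2 each). These values rested on 6 and 7 reads at 96 h, against 2 and 1 reads at 48 h, so no test is given for it.

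The highest and the lowest library were nearly the same in every host. On the scale with equal medians library 1 at 48 h was the lowest in 17 of the 18 genes and library 2 at 96 h was the highest in 16. The list's medians per library, relative to the mean of the 48 h libraries, were 0.36 and 1.02 at 96 h, against -0.49 and 0.49 at 48 h. Without 48 h library 1 the median difference was 0.36, and without 48 h library 2 it was 1.30. Without 96 h library 1 it was 1.16, and without 96 h library 2 it was 0.75. After removal of the trend with gene length from each library it was 0.75. The direction was the same in each of these fits, and its size depended most on 48 h library 1.

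Outside the list, 2 further snoRNA hosts were among the 12 largest differences named by rule. Zfas1 had 48.2 and 71.9 RPKM at 96 h, against 14.9 and 47.5 RPKM at 48 h, a difference of 1.20 (SE 0.76). Dancr, which hosts a snoRNA and is also known as a repressor of differentiation in human epidermal cells, had 6.36 and 7.05 RPKM at 96 h, against 1.54 and 4.84 RPKM at 48 h, a difference of 1.19 (SE 0.65). In both genes 48 h library 1 was far below the other 3.

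**Figure D2:**
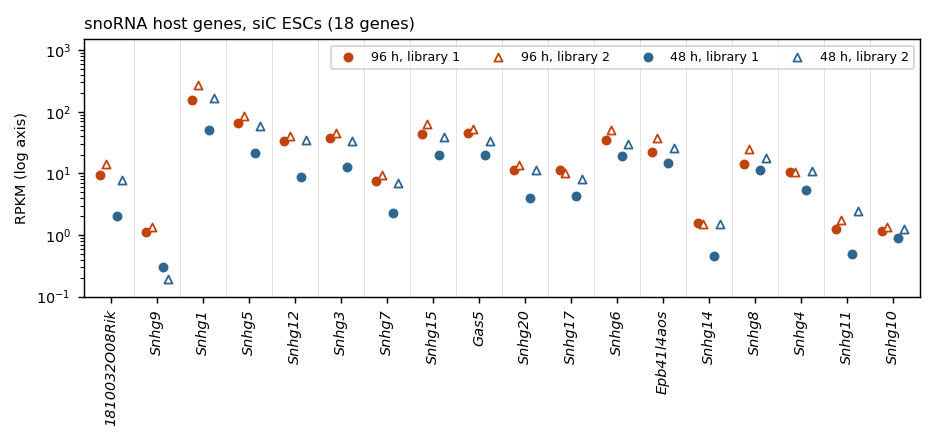
RPKM (log axis) of the 18 snoRNA host genes tested, one column per gene, in 96 h libraries 1 and 2 and 48 h libraries 1 and 2. The 48 h library 1 point is the lowest of its column in 17 of 18 genes, with Snhg9 the exception. The gene 1810032O08Rik is Snhg16 in RefSeq.

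The snoRNAs themselves, with the Cajal body RNAs, had by far the fewest reads in 48 h library 1. This list was drawn up after the values were seen. Of 115 such genes 76 passed the filter, 10 of them with a mean of at least 0.5 RPKM at 96 h only and 3 at 48 h only. Since the filter could fix the direction of those genes, the reads are given here without a filter. Single genes rested on few reads. Snora69 had 4 and 4 reads at 96 h, against 0 and 0 at 48 h, and Snord93 had 4 and 4 reads at 96 h, against 1 and 0 at 48 h. Snora65, among the best covered, had 151 and 206 reads at 96 h, against 29 and 122 at 48 h. Summed over the 95 genes whose reads could be recovered, with no filter, there were 1515 and 1805 reads at 96 h, against 419 and 1268 at 48 h. Library 1 at 48 h, the deepest of the 4 with 36551129 reads, had the fewest of these reads. Libraries of fragmented RNA keep short transcripts poorly, and whether the share of short RNA kept differed between the libraries was not tested.

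Most genes of cholesterol and fatty acid synthesis had lower values at 96 h, and none passed the test. These enzymes are switched on together by the SREBP factors when sterols in the cell are scarce. Of 32 genes 31 passed the filter, 1 difference lay above 0 and 30 below, and the median was -0.38. In both 96 h libraries 12 genes were lower than in either 48 h library, where 10.3% of all genes were. The filter could fix the direction of 1 of the 31 genes, whose mean reached 0.5 RPKM at 48 h only. Fdps, which makes farnesyl diphosphate, had 81.7 and 145 RPKM at 96 h, against 186 and 202 RPKM at 48 h, a difference of -0.76 (SE 0.40). Dhcr7 and Nsdhl act late in the pathway. Dhcr7 had 15.2 and 25.03 RPKM at 96 h, against 32.7 and 37.7 RPKM at 48 h, and Nsdhl had 16.1 and 25.3 RPKM at 96 h, against 32.7 and 34.0 RPKM at 48 h. In each of these 3 genes both 96 h libraries were below both 48 h libraries.

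The regulator and the enzymes of supply stood on the same side. Srebf2, the SREBP that drives sterol genes and is itself one of their number, had 58.5 and 41.3 RPKM at 96 h, against 89.5 and 65.8 RPKM at 48 h, and its difference was -0.57 (SE 0.28). Acly, which makes cytosolic acetyl-CoA, had 161 and 139 RPKM at 96 h, against 225 and 199 RPKM at 48 h, and Acaca, the first step of fatty acid synthesis, had 17.3 and 10.6 RPKM at 96 h, against 21.8 and 19.4 RPKM at 48 h. Sqle, a rate-limiting enzyme of the sterol branch, had 48.7 and 43.5 RPKM at 96 h, against 68.5 and 58.3 RPKM at 48 h. Scd2, the desaturase with the highest level in the list, had 312 and 191 RPKM at 96 h, against 325 and 275 RPKM at 48 h, and its libraries overlapped. The one member above 0 was Srebf1, the SREBP of fatty acid genes, with 43.2 and 25.7 RPKM at 96 h, against 31.0 and 27.8 RPKM at 48 h and a difference of 0.25 (SE 0.34). The list's medians per library were -0.64 and -0.21 at 96 h, against -0.02 and 0.02 at 48 h, relative to the 48 h mean. Without 96 h library 1 the median difference was -0.14 and without 96 h library 2 it was -0.57, while leaving out either 48 h library gave -0.42 and -0.33.

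Promoters of several of these genes hold the letters CCAAT, the box bound by NF-Y, a factor known to act beside SREBP at sterol genes. Each line gives the bases just before the annotated start (RefSeq, GRCm38.p6), and capitals mark CCAAT on either strand, which reads ATTGG on the lower one:
Dhcr7 (chr7:143830114-143830213, plus strand): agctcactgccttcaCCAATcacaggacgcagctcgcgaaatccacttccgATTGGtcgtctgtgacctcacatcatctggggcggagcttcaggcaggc
Nsdhl (chrX:72918401-72918520, plus strand): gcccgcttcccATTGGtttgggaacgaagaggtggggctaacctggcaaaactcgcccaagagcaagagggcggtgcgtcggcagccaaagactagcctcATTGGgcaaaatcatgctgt
Fasn (chr11:120824548-120824647, minus strand): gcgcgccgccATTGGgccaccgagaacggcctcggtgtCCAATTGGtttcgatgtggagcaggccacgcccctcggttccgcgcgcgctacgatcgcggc
Mvd (chr8:122443423-122443522, minus strand): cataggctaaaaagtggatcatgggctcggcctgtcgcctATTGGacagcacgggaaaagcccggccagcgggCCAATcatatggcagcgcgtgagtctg
In the whole window of 250 bases before to 50 after the start, CCAAT was found on either strand in 18 of the 21 list members with a promoter (85.7%), against 41.1% of 27025 promoters. The letters CACNCCA, the core of a sterol regulatory element, were found in 4 of 21 (19%), against 20.6%. Among the genes shown, Fasn, the fatty acid synthase, had 88.6 and 34.0 RPKM at 96 h, against 105 and 72.8 RPKM at 48 h, and Mvd, an early step of the sterol pathway, had 17.5 and 42.7 RPKM at 96 h, against 23.4 and 38.4 RPKM at 48 h. Both overlapped between the times.

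Most target genes of the integrated stress response had lower values too. In this response, shortage of amino acids or other stress leads to translation of the factor ATF4, which turns on amino acid transporters, synthetic enzymes and tRNA synthetases. Of 31 genes 29 passed the filter, 5 of 29 differences lay above 0 and 24 below, the median was -0.33, and 8 genes were lower and 1 higher in both libraries. Ddit3 (CHOP), a factor induced by ATF4, had 9.76 and 9.55 RPKM at 96 h, against 17.7 and 23.1 RPKM at 48 h, or 9.65 ± 0.150 RPKM at 96 h and 20.4 ± 3.77 RPKM at 48 h (SD, n = 2 each). Its difference was -0.96 (SE 0.26), with an unadjusted p of 0.00786. Slc7a5, a transporter of large neutral amino acids, had 71.7 and 65.9 RPKM at 96 h, against 116 and 109 RPKM at 48 h, a difference of -0.64 (SE 0.16) and an unadjusted p of 0.00613. In Slc7a5 the libraries of each time lay close together, and in Ddit3 only those of 96 h did. Both genes had both 96 h libraries below both 48 h libraries.

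Trib3, a pseudokinase that restrains ATF4, had 11.4 and 16.8 RPKM at 96 h, against 24.9 and 26.3 RPKM at 48 h. Shmt2, a mitochondrial enzyme of serine breakdown, had 68.5 and 79.8 RPKM at 96 h, against 103 and 108 RPKM at 48 h, and Stc2, a secreted glycoprotein, had 1.01 and 0.802 RPKM at 96 h, against 2.00 and 2.05 RPKM at 48 h. All 3 were lower in both libraries. Some members had 96 h libraries far apart from each other. Chac1, a glutathione-degrading enzyme, had 0.674 and 4.79 RPKM at 96 h, against 4.58 and 8.81 RPKM at 48 h, and Nupr1, a stress-induced chromatin protein, had 11.9 and 55.9 RPKM at 96 h, against 49.8 and 95.2 RPKM at 48 h, a difference of -1.32 (SE 1.09), with 96 h library 1 far below the other 3. Atf4 itself, regulated mainly at translation, had 133 and 196 RPKM at 96 h, against 173 and 213 RPKM at 48 h and overlapped. Asns, the asparagine synthetase and most abundant target, had 390.3 and 509.6 RPKM at 96 h, against 461 and 556 RPKM at 48 h, and Gars, a tRNA synthetase, 121 and 219.5 RPKM at 96 h, against 191 and 238 RPKM at 48 h. The arginine transporter gene Slc7a3 was the 1 member higher in both libraries, with 60.8 and 51.8 RPKM at 96 h, against 40.4 and 50.5 RPKM at 48 h. The median was -0.02 without 96 h library 1 and -0.62 without 96 h library 2, and between libraries of the same number it was -0.65 for library 1 and -0.18 for library 2.

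ATF4 binds with partners to amino acid response elements. Each line gives 50 bases upstream of the annotated start (RefSeq, GRCm38.p6), but not the bases next to it. They run from 220 to 171 bases before the start in Chac1, from 130 to 81 in Nupr1 and Atf3 and from 140 to 91 in Ddit3. Capitals mark GATGNAA on either strand, which reads TTNCATC on the lower one:
Chac1 (chr2:119351022-119351071, plus strand): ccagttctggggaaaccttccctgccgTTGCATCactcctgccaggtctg
Nupr1 (chr7:126625551-126625600, minus strand): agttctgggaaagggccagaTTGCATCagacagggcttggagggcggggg
Ddit3 (chr10:127290653-127290702, plus strand): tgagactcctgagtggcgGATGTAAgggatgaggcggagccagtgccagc
Atf3 (chr1:191183414-191183463, minus strand): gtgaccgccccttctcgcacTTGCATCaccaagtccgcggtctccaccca
Of the 29 members tested 24 had a promoter in the table, and 9 of those (37.5%) held GATGNAA within the window of 250 bases before to 50 after the start, against 13.9% of all promoters. Atf3, the last of the genes shown, is a stress-induced factor and had 0.777 and 2.52 RPKM at 96 h, against 1.53 and 3.99 RPKM at 48 h.

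Most genes of the antioxidant response and the metallothioneins had lower values at 96 h, and the median of the list depended little on any library. The factor NRF2 controls many of these genes, and metallothioneins bind zinc and copper under control of MTF1. Of the 16 members 3 of 16 differences lay above 0 and 13 below, the median was -0.37, and 9 were lower in both libraries. Srxn1, which repairs oxidised peroxiredoxins, had 15.8 and 20.2 RPKM at 96 h, against 34.2 and 31.9 RPKM at 48 h, a difference of -0.80 (SE 0.23) and an unadjusted p of 0.0111. Gclm, a subunit of the first enzyme of glutathione synthesis, had 23.6 and 22.6 RPKM at 96 h, against 36.6 and 32.7 RPKM at 48 h, and Txnrd1, the thioredoxin reductase, had 76.4 and 59.1 RPKM at 96 h, against 111 and 82.8 RPKM at 48 h. Mt1 had 432 and 465 RPKM at 96 h, against 616 and 571 RPKM at 48 h, and Mt2 had 587 and 574 RPKM at 96 h, against 841 and 802 RPKM at 48 h. In each of these 5 genes both 96 h libraries were below both 48 h libraries. Prdx1, a peroxiredoxin with the highest level in the list, had 682 and 1044 RPKM at 96 h, against 809 and 888 RPKM at 48 h and overlapped. Leaving out any one of the 4 libraries moved the median only between -0.39 and -0.27.

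**Figure D3:**
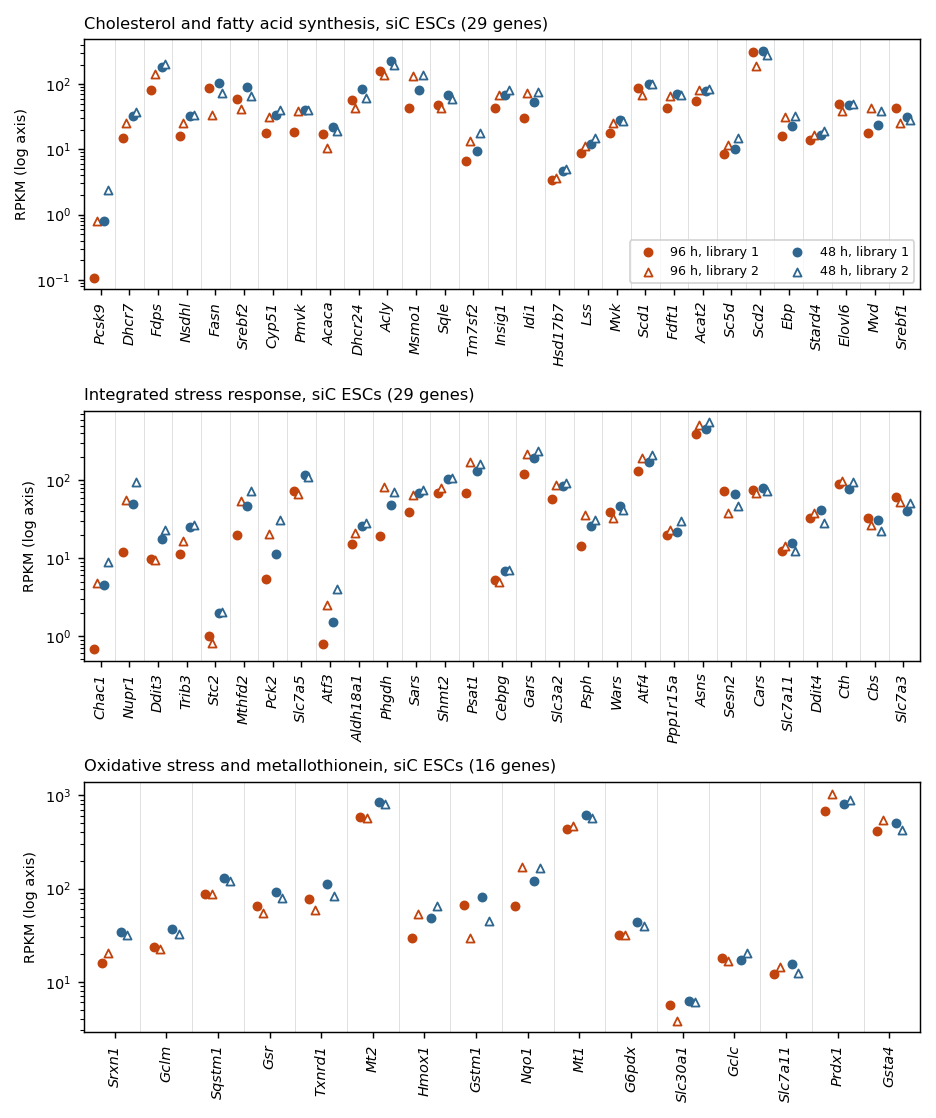
RPKM (log axis) of the members tested in 3 lists, cholesterol and fatty acid synthesis (29 of 31 genes shown), integrated stress response (29) and oxidative stress and metallothionein (16), in the 96 h and 48 h libraries, ordered by the difference between the times. Fdps and Dhcr7 in the first list, Ddit3 and Slc7a5 in the second and Srxn1, Mt1 and Mt2 in the third have both 96 h points below both 48 h points.

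Most lysosomal genes also had lower values at 96 h. Of 27 members 5 of 27 differences lay above 0 and 22 below, with a median of -0.15, and 7 were lower in both libraries. Ctsz, a lysosomal protease, had 14.01 and 19.8 RPKM at 96 h, against 26.9 and 28.4 RPKM at 48 h, and the autophagy receptor Sqstm1, which is also an NRF2 target, had 87.0 and 87.7 RPKM at 96 h, against 131 and 121 RPKM at 48 h, a difference of -0.45 (SE 0.17). The most abundant members Lamp1, a membrane glycoprotein, Ctsd, a protease, and Psap, an activator of lipid hydrolysis, differed by -0.10, -0.09 and -0.37, each with overlap once medians were equal.

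The other stress lists had smaller medians. For the unfolded protein response 3 of 18 differences lay above 0 and 15 below, the median was -0.09, and 5 were lower in both libraries, among them Xbp1, a factor activated by splicing, with 22.6 and 19.5 RPKM at 96 h, against 35.0 and 23.4 RPKM at 48 h. Its median was 0.10 without 96 h library 1 and -0.27 without 96 h library 2. The chaperones Calr, Hsp90b1 and Pdia3, its most abundant members, differed by -0.09, -0.03 and 0.09. Of 20 heat shock genes 8 differences lay above 0 and 12 below, with a median of -0.05, and 3 were lower in both libraries. The cytosolic chaperones Hspa8, Hsp90ab1 and Hsp90aa1 differed by 0.19, 0.19 and -0.24.

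In glycolysis 22 of 23 genes passed the filter, 6 of 22 differences lay above 0 and 16 below, the median was -0.14, and 4 were lower in both libraries. Slc2a3, a glucose transporter of early embryos, had 292 and 330.1 RPKM at 96 h, against 359.8 and 457 RPKM at 48 h, and Gapdh, the most abundant, had 2315 and 2202 RPKM at 96 h, against 2641 and 2489.7 RPKM at 48 h. Pkm and Aldoa, next in level, differed by 0.00 and -0.12. In the hypoxia response 21 of 24 genes passed the filter, 10 of 21 differences lay above 0 and 11 below, the median was -0.05, and 6 were lower and 1 higher in both libraries. Bhlhe40, a transcriptional repressor, gave the clearest difference there, with 6.74 and 7.31 RPKM at 96 h, against 16.7 and 18.7 RPKM at 48 h, a difference of -1.20 (SE 0.25) and an unadjusted p of 0.00208. Vegfa, the endothelial growth factor, had 2.88 and 4.94 RPKM at 96 h, against 6.01 and 9.48 RPKM at 48 h. The most abundant members, the histone demethylase Kdm3a, the glucose transporter Slc2a1 and Fam162a, differed by 0.25, -0.29 and 0.31.

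Many targets of p53 were higher at 96 h while the best known of them was not. The transcription factor p53 limits division and survival after DNA damage, and its gene Trp53 had 187 and 129 RPKM at 96 h, against 187 and 154 RPKM at 48 h, a difference of -0.05 (SE 0.27). Cdkn1a, the p21 inhibitor of cyclin-dependent kinases, had 126 and 89.9 RPKM at 96 h, against 134 and 92.2 RPKM at 48 h, a difference of 0.01 (SE 0.30). Mdm2, the ubiquitin ligase that removes p53, had 92.5 and 75.8 RPKM at 96 h, against 75.1 and 55.3 RPKM at 48 h, a difference of 0.45 (SE 0.21), and Ccng1, which encodes cyclin G1, had 194 and 156 RPKM at 96 h, against 154 and 114 RPKM at 48 h, a difference of 0.46 (SE 0.22). In both Mdm2 and Ccng1 the raw RPKM of 96 h library 2 and 48 h library 1 were almost level. Of 51 targets 50 passed the filter, 38 of 50 differences lay above 0 and 12 below, the median was 0.28, and 14 were higher and 4 lower in both libraries. Perp, a membrane protein of apoptosis and adhesion, had 21.7 and 19.5 RPKM at 96 h, against 14.7 and 9.86 RPKM at 48 h, a difference of 0.82 (SE 0.22) and an unadjusted p of 0.00837. Cd80, an immune co-receptor, had 31.0 and 23.3 RPKM at 96 h, against 18.9 and 12.2 RPKM at 48 h, and the noncoding RNA Pvt1 had 3.54 and 2.78 RPKM at 96 h, against 1.17 and 1.93 RPKM at 48 h. In each of these 3 genes both 96 h libraries were above both 48 h libraries.

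Among the 4 lower targets were Plk3, a polo-like kinase with 5.00 and 2.74 RPKM at 96 h, against 10.4 and 5.19 RPKM at 48 h, and Gadd45b, a stress-induced regulator, with 11.3 and 10.3 RPKM at 96 h, against 20.5 and 13.96 RPKM at 48 h. Bax, the pore-forming cell death protein and most abundant target, had 269.6 and 326 RPKM at 96 h, against 296 and 265 RPKM at 48 h and overlapped. The list's median was 0.07 without 48 h library 2 and 0.45 without 48 h library 1. Of 20 regulators of apoptosis 18 passed the filter, 8 of 18 differences lay above 0 and 10 below, with a median of -0.01 and 3 lower in both libraries. Bak1, the other pore-forming protein, was one of them, with 26.9 and 34.2 RPKM at 96 h, against 38.9 and 41.7 RPKM at 48 h. Mcl1, a survival protein, and Cycs, cytochrome c, differed by 0.10 and -0.07. The median of that list was 0.20 without 96 h library 1 and -0.11 without 96 h library 2.

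Tdg, the glycosylase that excises oxidised methylcytosine and the target of the other siRNA in the study, had 35.8 and 46.0 RPKM at 96 h, against 46.0 and 43.4 RPKM at 48 h in the control cells, a difference of -0.07 (SE 0.34). Of 21 enzymes of DNA methylation and demethylation 9 of 21 differences lay above 0 and 12 below, the median was -0.07, and 2 were lower in both libraries. Uhrf1, which brings the maintenance methyltransferase to new DNA, had 216 and 179.8 RPKM at 96 h, against 245 and 242 RPKM at 48 h, and Tet3, a methylcytosine dioxygenase low in ESCs, had 0.875 and 0.604 RPKM at 96 h, against 1.09 and 0.991 RPKM at 48 h. The repair proteins Parp1 and Apex1, abundant members, differed by 0.00 and 0.16. Without 96 h library 1 the median was 0.03 and without 96 h library 2 it was -0.14.

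Cell cycle lists had small medians. Most differences of the G1/S list lay above 0, but its median changed sign without 96 h library 2. For G1/S and replication 38 of 49 differences lay above 0 and 11 below, the median was 0.13, and 3 were higher and 3 lower in both libraries. E2f1, which drives entry into S phase, had 15.7 and 14.5 RPKM at 96 h, against 22.3 and 18.2 RPKM at 48 h, and Mcm7, a subunit of the replicative helicase, had 251 and 273 RPKM at 96 h, against 249 and 225 RPKM at 48 h. The sliding clamp Pcna and the helicase subunit Mcm3, the other abundant members, differed by 0.22 and -0.05. Without 96 h library 1 the median was 0.32 and without 96 h library 2 it was -0.11. For G2/M and mitosis 32 of 59 differences lay above 0 and 27 below, the median was 0.02, and 6 were higher and 4 lower. Ckap2, a spindle protein and p53 target, had 73.0 and 83.0 RPKM at 96 h, against 56.0 and 56.0 RPKM at 48 h, a difference of 0.54 (SE 0.19). The importin Kpna2, the ubiquitin-conjugating enzyme Ube2c and the mitotic cyclin Ccnb1, the highest in level, differed by 0.00, -0.08 and 0.08. Of 16 CDK inhibitors and G1 cyclins 15 passed the filter, 10 of 15 differences lay above 0 and 5 below, with a median of 0.05, 4 higher and 1 lower in both libraries. Cdk4, the kinase partner of cyclin D, had 504 and 613 RPKM at 96 h, against 474 and 453 RPKM at 48 h, and was higher with Ccnd1, while Ccnd3, another cyclin D, had 93.9 and 68.2 RPKM at 96 h, against 152 and 89.3 RPKM at 48 h and overlapped.

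Lists of short genes followed 96 h library 2. Of 77 genes of cytosolic ribosomal proteins 76 passed the filter and 73 of 76 differences lay above 0 and 3 below, with a median of 0.29, but only 3 were higher in both libraries (11.1% of all genes were). On the scale with equal medians library 2 at 96 h was the highest in 74 of the 76. The median per library was -0.03 and 0.64 at 96 h, against 0.02 and -0.02 at 48 h, relative to the 48 h mean. Without 96 h library 1 the median difference was 0.61 and without 96 h library 2 it was -0.04, and it was 0.11 after removal of the length trend. Rps18, the most abundant, had 3258 and 5578 RPKM at 96 h, against 3453 and 3424 RPKM at 48 h. Rplp1 and Rps2, next in level, differed by 0.16 and -0.08.

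Subunits of oxidative phosphorylation behaved likewise. Of 74 genes 73 passed the filter, 63 of 73 differences lay above 0 and 10 below, the median was 0.19, and 2 were higher in both libraries, Cox8a and Cox6c. Cox8a, a subunit of cytochrome c oxidase, had 251 and 291 RPKM at 96 h, against 204 and 217 RPKM at 48 h. Without 96 h library 1 the median was 0.56, without 96 h library 2 it was -0.15, and with the length trend removed it was 0.01. Atp5b, a catalytic subunit of ATP synthase, and the oxidase subunits Cox4i1 and Cox6b1, the highest in level, differed by 0.08, 0.31 and 0.26. Replication-dependent histones, whose mRNAs mostly lack a poly(A) tail, passed the filter in 38 of 55 genes, 7 of them with a mean of at least 0.5 RPKM at 96 h only and 1 at 48 h only. Since the filter could fix the direction of those genes, their median is a description only, at 0.19, 0.64 without 96 h library 1 and -0.23 without 96 h library 2. Hist1h2bc had 3.31 and 4.53 RPKM at 96 h, against 2.80 and 2.38 RPKM at 48 h, and Hist1h2ag and Hist1h2ai differed by 0.29 and -0.49. Histone genes are near-identical copies, and reads between them may be shared.

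Most tested genes of the 2-cell-like state had higher values at 96 h, and the median of the list was higher in library 2 than in library 1 at both times. A few ESCs in any culture pass through a state with transcripts of the 2-cell embryo, of which Zscan4 genes are the marker. Of 31 genes 12 passed the filter and 19 did not. The 12 had 11 differences above 0, 1 below, a median of 0.91 and 3 higher in both libraries. Zscan4a, Zscan4b, Zscan4c, Zscan4d and Zscan4f were among the 12, and reads may be shared between such related genes. Zscan4c had 0.570 and 5.33 RPKM at 96 h, against 0.0866 and 1.96 RPKM at 48 h. On the scale with equal medians library 2 at 96 h was the highest in all 12 genes, and the median was -0.15 without it, against 1.84 without 96 h library 1. Between libraries of the same number, 96 h was above 48 h in 11 of 12 genes for library 1, with a median of 0.63, and in all 12 for library 2, with a median of 1.12. Pramel6, a gene of the PRAME family, had 7.23 and 9.39 RPKM at 96 h, against 4.96 and 5.74 RPKM at 48 h, a difference of 0.65 (SE 0.22), and was one of the 3. The other abundant members Calcoco2 and Eif1a, which all ESCs express, differed by -0.06 and 0.20.

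Germline genes that promoter methylation keeps silent in somatic cells split in both directions. Of 39 genes 34 passed the filter, 20 of 34 differences lay above 0 and 14 below, the median was 0.11, and 6 were higher and 4 lower in both libraries. Ddx4 (Vasa), an RNA helicase of germ cells, was lower, with 1.16 and 2.60 RPKM at 96 h, against 3.87 and 3.71 RPKM at 48 h, and so was Piwil2, a piRNA-binding protein, with 0.959 and 1.35 RPKM at 96 h, against 1.86 and 1.89 RPKM at 48 h. The X-linked Magea4 was higher, with 4.25 and 3.37 RPKM at 96 h, against 2.88 and 2.31 RPKM at 48 h, and so was Xlr4a, with 10.2 and 10.1 RPKM at 96 h, against 9.25 and 6.14 RPKM at 48 h, both from families of near-identical copies. The abundant members Rpl10l, Tuba3a and Tex19.1 differed by 0.23, -0.17 and 0.14. The median was 0.32 without 96 h library 1 and -0.16 without 96 h library 2. Of 26 imprinted genes 17 passed the filter, 6 of 17 differences lay above 0 and 11 below, with a median of -0.07 and 3 higher in both libraries. Rian, a noncoding RNA of the Dlk1-Dio3 cluster that holds many snoRNAs, had 68.2 and 62.3 RPKM at 96 h, against 41.3 and 54.5 RPKM at 48 h, a difference of 0.52 (SE 0.21), and Mirg, the microRNA host of the same cluster, had 11.4 and 10.6 RPKM at 96 h, against 4.81 and 8.90 RPKM at 48 h. The other abundant members Impact and Slc38a4 differed by -0.21 and -0.07.

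Of 36 interferon-stimulated genes 20 passed the filter, 15 of 20 differences lay above 0 and 5 below, with a median of 0.13 and 2 lower in both libraries. Stat2, a factor of interferon signalling, had 10.3 and 10.98 RPKM at 96 h, against 12.9 and 17.9 RPKM at 48 h. Ifitm2, Ifitm3 and Ifitm1, membrane proteins that ESCs express without interferon, differed by 0.03, 0.03 and 0.32. Of 31 genes of the extracellular matrix and adhesion 27 passed the filter, 1 of them with a mean of at least 0.5 RPKM at 48 h only. The filter could fix the direction of that gene. In this list 9 of 27 differences lay above 0 and 18 below, the median was -0.10, and 4 were lower in both libraries. Itga5, the α subunit of the fibronectin receptor, gave the largest of these differences, with 6.41 and 10.4 RPKM at 96 h, against 21.4 and 20.2 RPKM at 48 h, -1.22 (SE 0.35) and an unadjusted p of 0.0107. Fibronectin itself, Fn1, had 236 and 69.6 RPKM at 96 h, against 224 and 149 RPKM at 48 h and overlapped, and Vim and Cdh1, the other abundant members, differed by 0.05 and -0.03. That median was -0.39 without 96 h library 1 and 0.18 without 96 h library 2. Of 15 YAP targets, genes of the Hippo pathway, 14 passed the filter, 6 of 14 differences lay above 0 and 8 below, with a median of -0.04, 2 higher and 1 lower in both libraries. The one lower was F3, tissue factor, with 2.22 and 2.06 RPKM at 96 h, against 4.49 and 3.62 RPKM at 48 h. Amotl2, Ajuba and Tead4, the highest in level, differed by -0.17, -0.12 and -0.30. That median was -0.23 without 96 h library 1 and 0.21 without 96 h library 2.

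**Figure D4:**
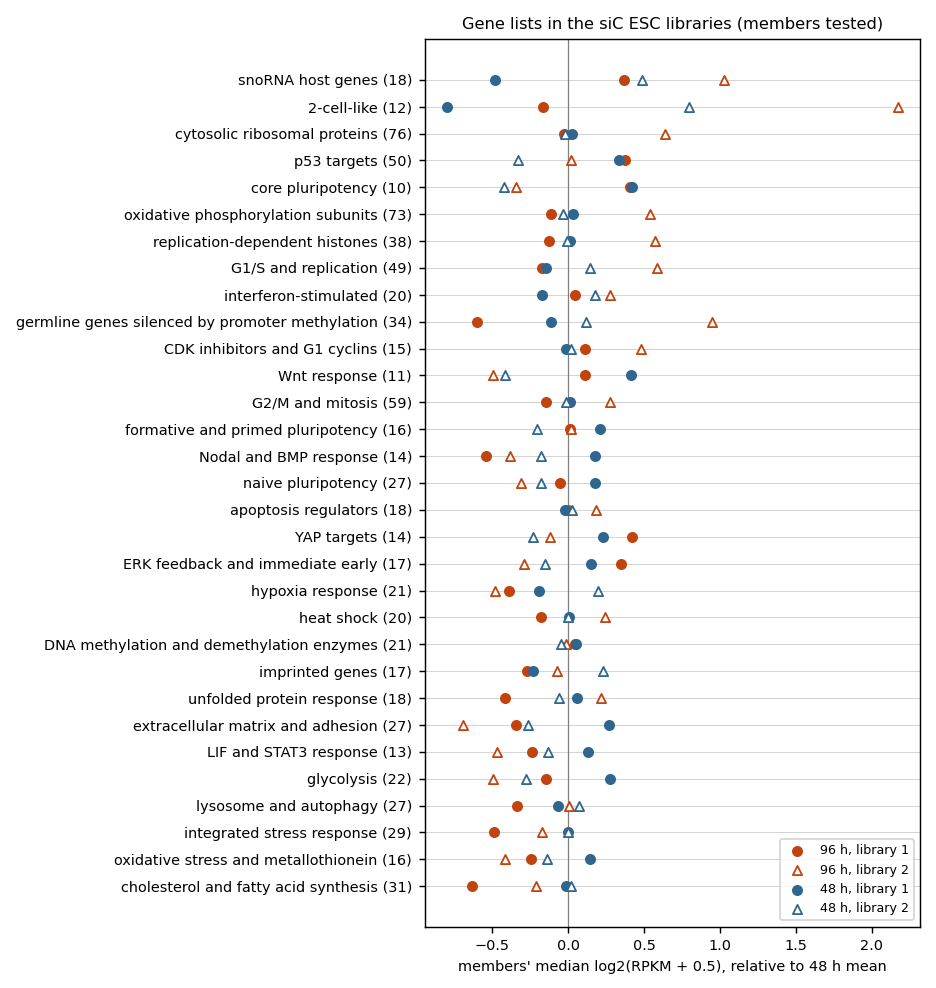
Median log2(RPKM + 0.5) of the tested members of 31 gene lists in each of the 4 control libraries, relative to the mean of the 48 h libraries. Both 96 h points lie below both 48 h points in 7 lists (cholesterol and fatty acid synthesis, integrated stress response, oxidative stress, Nodal and BMP, LIF and STAT3, hypoxia, extracellular matrix) and above them in 1 (CDK inhibitors and G1 cyclins). A median of levels can differ from the median of the members' differences, which was 0.01 for Nodal and BMP. The ribosomal, oxidative phosphorylation and 2-cell-like points of 96 h library 2 stand to the right of the other 3.

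By rule the 12 largest differences in each direction were named among genes without overlap whose higher group averaged at least 1 RPKM. Genes with a clone, predicted-gene, microRNA, snoRNA, Cajal body RNA or other small RNA symbol were left out. Some genes left out had larger differences, such as 1.46 for the host 1810032O08Rik (Snhg16) and 2.49 for Snord87. On the higher side 6 of the 12 were snoRNA hosts, namely Snhg9, Zfas1, Dancr, Snhg5, Snhg3 and Snhg7. Snhg3 had 37.7 and 45.7 RPKM at 96 h, against 12.7 and 33.7 RPKM at 48 h, and Snhg7 had 7.45 and 9.50 RPKM at 96 h, against 2.32 and 6.91 RPKM at 48 h. Id3 was described above. Of the other 5, Cd3d, known as a chain of the T cell receptor complex, had 1.69 and 1.06 RPKM at 96 h, against 0.339 and 0.292 RPKM at 48 h, and Enox1, a plasma membrane oxidase, had 5.28 and 7.34 RPKM at 96 h, against 2.12 and 3.38 RPKM at 48 h. The zinc finger gene Zfp28 had 11.1 and 5.42 RPKM at 96 h, against 5.18 and 2.35 RPKM at 48 h, the melanocyte antigen gene Mlana 23.0 and 17.8 RPKM at 96 h, against 13.2 and 7.21 RPKM at 48 h and the aldo-keto reductase gene Akr1cl 2.99 and 1.07 RPKM at 96 h, against 1.03 and 0.438 RPKM at 48 h. In Zfp28 and Akr1cl 96 h library 2 was close to 48 h library 1. The filter could fix the direction of Cd3d and Snhg9, whose means reached 0.5 RPKM at 96 h only.

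On the lower side, Cidea, a lipid droplet protein, had 1.06 and 1.09 RPKM at 96 h, against 8.54 and 2.31 RPKM at 48 h, a difference of -1.61 (SE 0.75). Tinagl1, a secreted matricellular protein, had 1.15 and 0.871 RPKM at 96 h, against 6.36 and 2.32 RPKM at 48 h, a difference of -1.48 (SE 0.52), and Gpnmb, a transmembrane glycoprotein of lysosome-rich cells, had 1.09 and 3.06 RPKM at 96 h, against 3.72 and 10.9 RPKM at 48 h, a difference of -1.47 (SE 0.72). In these 3 genes the 48 h libraries stood far apart from each other. Cdx1 was the fourth. Cotl1, an actin-binding protein, had 7.12 and 7.47 RPKM at 96 h, against 22.4 and 16.1 RPKM at 48 h, a difference of -1.25 (SE 0.27), and Oasl1, an interferon-stimulated gene, had 0.305 and 1.06 RPKM at 96 h, against 1.84 and 2.75 RPKM at 48 h. S100a13, a calcium-binding protein, had 14.5 and 33.8 RPKM at 96 h, against 43.8 and 90.3 RPKM at 48 h, and Col9a2, a collagen chain, had 0.883 and 1.15 RPKM at 96 h, against 6.19 and 1.89 RPKM at 48 h. Necab2, a neuronal calcium-binding protein, had 1.06 and 2.49 RPKM at 96 h, against 4.99 and 5.33 RPKM at 48 h, and Mafa, a factor known from beta cells, had 0.126 and 0.0975 RPKM at 96 h, against 2.03 and 0.491 RPKM at 48 h. Mafa rested on 4 and 3 reads at 96 h, against 78 and 15 at 48 h. The filter could fix its direction, since its mean reached 0.5 RPKM at 48 h only. Calr4, a calreticulin relative, had 3.94 and 7.26 RPKM at 96 h, against 11.9 and 16.9 RPKM at 48 h, and the class I histocompatibility gene H2-Bl, which has near-identical relatives, had 2.05 and 2.14 RPKM at 96 h, against 8.30 and 4.25 RPKM at 48 h.

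The siTdg cells were harvested at the same times and give 4 more libraries for the same contrast, whose deviations went with those of the control libraries. Over genes, the deviations of siTdg and siC libraries of the same number from their group means had a correlation of 0.935 at 96 h and 0.850 at 48 h. Tdg served as the check of the labels. In siTdg cells it had 28.2 and 40.3 RPKM at 96 h, against 7.34 and 13.2 RPKM at 48 h, and in siC cells it had 35.8 and 46.0 RPKM at 96 h, against 46.0 and 43.4 RPKM at 48 h. At 48 h both siTdg libraries were far below both siC libraries, and at 96 h the ranges met. For the contrast of times in siTdg cells limma called 0 of 12210 genes, with 204 (1.67%) below an unadjusted p of 0.05 and a lowest adjusted p of 0.712. With limma-voom 0 were called and 210 lay at that level. Libraries did not overlap for 1211 genes that were higher at 96 h (9.92%) and 1067 that were lower (8.74%). Across 12210 genes the 2 differences had a Pearson correlation of 0.768 and a Spearman correlation of 0.771, given as a description, since genes are not replicates and the points share the tables, any handling common to a time and those same-number deviations. Over all 8 libraries, the 4 at 96 h lay above the 4 at 48 h in 430 genes (3.52%) and below in 441 (3.61%).

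The lists with the largest medians in siC cells had the same sign in siTdg cells. The median of snoRNA hosts was 0.84 in siTdg and 0.93 in siC cells, that of oxidative stress -0.29 in siTdg and -0.37 in siC cells, and that of ribosomal proteins 0.27 in siTdg and 0.29 in siC cells. For cholesterol and fatty acid synthesis it was -0.15 in siTdg and -0.38 in siC cells. For the integrated stress response it was -0.15 in siTdg and -0.33 in siC cells. For p53 targets it was 0.15 in siTdg and 0.28 in siC cells, and for 2-cell-like genes 0.21 in siTdg and 0.91 in siC cells. These differences in size between the groups were not tested. Library 1 at 48 h was low for snoRNA hosts in siTdg cells as well. There Zfas1 had 13.7 and 51.5 RPKM and Snhg7 2.75 and 10.3 RPKM in 48 h libraries 1 and 2. Of Snhg9, Zfas1, Dancr, Snhg5, Snhg3 and Snhg7 only Snhg5 was free of overlap in siTdg cells. Reads over 75 snoRNA and Cajal body RNA genes in siTdg cells were 1471 and 1937 at 96 h, against 452 and 1372 at 48 h. Wnt response genes had a median of -0.24 in siTdg and 0.03 in siC cells. Cdx1 had 7.85 and 8.01 RPKM at 96 h, against 33.2 and 24.99 RPKM at 48 h in siTdg cells, a difference of -1.74 there, against -1.47 in siC cells, so all 4 libraries at 96 h were below all 4 at 48 h. Bhlhe40 differed by -0.98 in siTdg and -1.20 in siC cells, and Srxn1 by -0.80 in siTdg and -0.80 in siC cells.

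**Figure D5:**
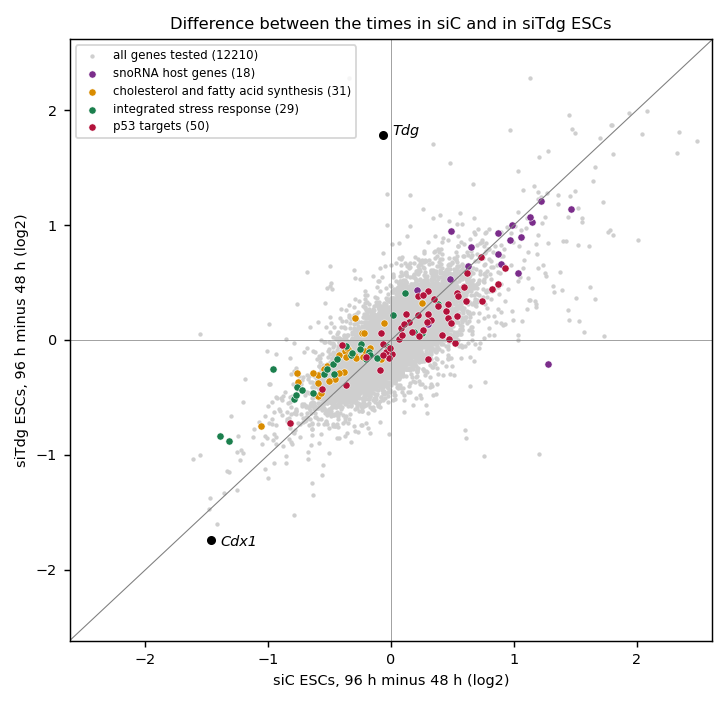
Log2 difference of 96 h minus 48 h in siTdg ESCs (vertical) against that in siC ESCs (horizontal) for the 12210 genes tested, with 4 gene lists in colour and the line of equal differences. Most genes of the snoRNA host list lie at the upper right and those of the cholesterol and stress lists at the lower left, Cdx1 is low on both axes, and Tdg stands at 1.78 on the siTdg axis and -0.07 on the siC axis.

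Whether time acted differently with and without the Tdg siRNA was tested by the interaction, the difference in siTdg cells minus that in siC cells. limma called 0 of 12210 genes, with 17 (0.139%) below an unadjusted p of 0.05. With limma-voom the counts were 0 and 8. By rule the 4 genes with the smallest p were named, among genes that met the conditions on level and symbol given above. Tdg itself had an interaction of 1.85 (SE 0.48). Snhg9 had 0.95 and 1.27 RPKM at 96 h, against 1.35 and 1.502 RPKM at 48 h in siTdg cells, a difference of -0.21 there against 1.28 in siC cells. Its siC values rested on 6 and 7 reads at 96 h, against 2 and 1 at 48 h. Its siC mean reached the filter level at 96 h only, so it is given by rank without a test result. Lst1, a gene of leukocytes, had 1.00 and 0.959 RPKM at 96 h, against 0.338 and 0.743 RPKM at 48 h in siTdg cells and 0.656 and 0.928 RPKM at 96 h, against 1.56 and 1.78 RPKM at 48 h in siC cells, an interaction of 1.28 (SE 0.37). Nt5e, a nucleotidase of the cell surface, had 2.42 and 1.76 RPKM at 96 h, against 3.41 and 3.92 RPKM at 48 h in siTdg cells and 3.16 and 2.46 RPKM at 96 h, against 2.17 and 2.49 RPKM at 48 h in siC cells, an interaction of -0.93 (SE 0.29). Tdg, Lst1 and Nt5e had an adjusted p of 1.00 (limma).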

How the data were processed

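RNA sequencing of 4 siC ESC libraries was analysed, with 4 siTdg ESC libraries and 2 siC libraries of day 11 EBs beside them. The titles of the samples gave the groups and library numbers. Total RNA, per the labels' protocols, was depleted of ribosomal RNA and made into stranded libraries. The submitters' processing notes name TopHat, Bowtie, DESeq2, DiffBind and mm9 without saying which step used which, and neither annotation nor counting tool is given in the sources used here. RPKM per gene were deposited by the authors in one table for each time, each scaled separately. A normalised signal, the authors' mean normalised count per gene, was deposited with their results and used only to recover reads. Left out were 4 columns labelled 0 h, whose names fit none of the samples.

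Tables were joined by gene symbol, and genes were kept whose mean over the 4 siC libraries reached 0.5 RPKM. Values were taken as log2(RPKM + 0.5), each library was set to the same median, and limma 3.58.1 in R 4.3.3 was fitted on 8 libraries with 1 mean per group (eBayes with trend, two-sided, Benjamini-Hochberg over all 12210 genes). RPKM turned back into whole reads for 100% of values within 0.01 reads, and limma-voom with TMM factors on those reads was an alternative. Reads ranged from 27781941 to 36551129 per ESC library. No pair of libraries agreed within sampling noise, the lowest chi-square per degree of freedom being 4.91. The fit was tested on simulated data of 12041 genes, where it made 2 false calls. Promoters were RefSeq's (GRCm38.p6), matched by symbol.

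The groups compared, the gene lists and the rules were chosen with earlier results of these data known. The 37 lists held 1026 entries, of which 1012 matched by symbol, 11 by a synonym and 3 not. Named genes were Tdg, Trp53 and 10 further genes of p53 or pluripotency, the 12 largest differences in each direction without overlap where the higher group averaged at least 1 RPKM, the 3 most abundant members of each list, and the 4 smallest p of the interaction. Clone, predicted-gene, microRNA, snoRNA and other small RNA symbols were left out of the largest differences and the smallest p. The level of 1 RPKM applied to both. Other members were picked once values were known. In the cholesterol list 2 members are counted in its totals and are not reported here singly. The alternatives tried were a lower and a higher pseudocount, filter and scaling changes, eBayes without trend, library number as a block, the spread of the 4 siC libraries alone, and each library left out. Removal of the length trend was added after the data were seen.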

Additional observations from a re-analysis of the deposited data

Results flagged for a closer look

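In 3 of the named genes the siTdg libraries at 96 h lay on one side of those at 48 h and the siC libraries on the other, once medians were equal. For Gapdh the difference in siTdg cells minus that in siC cells was 0.20 (SE 0.34), with 2243 and 2154 RPKM at 96 h, against 2160.5 and 2143 RPKM at 48 h in siTdg cells and 2315 and 2202 RPKM at 96 h, against 2641 and 2489.7 RPKM at 48 h in siC cells. For Lst1 it was 1.28 (SE 0.37), and for Nt5e it was -0.93 (SE 0.29), where the raw RPKM of siC cells overlapped. In Gapdh the raw RPKM of siTdg cells overlapped, and the value was smaller than its SE. In the test of the difference itself (limma interaction) each of the 3 genes had an adjusted p of 1.00. Among all 12210 genes, 36 were higher in siTdg and lower in siC cells in this sense and 26 were lower in siTdg and higher in siC cells. Groups of 2 libraries are too small to test a single library as an outlier.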

How the results depend on the processing

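In every alternative but one, 0 genes were called in siC cells, in siTdg cells and in the interaction. With the spread taken from the 4 siC libraries alone and library number as a block, chosen after the data were seen, 234 genes were called (150 higher, 84 lower), on 1 residual degree of freedom. The replicate block on 8 libraries called 0 genes, with 1506 at an unadjusted p under 0.05 in siC cells, 1468 in siTdg cells and 135 in the interaction, and limma-voom with the block called 0, with 1524. Same-numbered libraries deviated together (correlation 0.565 for siC at the 2 times, 0.531 to 0.935 over all pairs of groups), so they had more in common than a number. What they had in common is not given by the labels and was not tested, and there are only 2 numbers. Without the filter on low values 505 genes were at an unadjusted p under 0.05, and with the length trend removed 346.

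Medians of lists moved mostly with the 96 h libraries. Over the fits without 1 replicate, formative pluripotency ranged from -0.26 to 0.21, LIF and STAT3 from -0.34 to 0.029, DNA methylation from -0.14 to 0.048, apoptosis from -0.11 to 0.20, histones from -0.23 to 0.64, oxidative phosphorylation from -0.15 to 0.56, cholesterol from -0.57 to -0.14 and the integrated stress response from -0.62 to -0.018. Without setting medians the DNA methylation median was -0.14. Of 2272 values of the 134 named genes under the alternatives, 148 had the other sign than the value reported, in 74 genes. A gene was counted as reversed only where its reported difference exceeded its SE, which held for 1 of the 148. That gene, Tead4, was reversed to 0.0043 without 48 h library 2, within a range of -0.61 to 0.0043 over the 4 fits. The causes were not tested. Counting error limits genes on few reads, such as many snoRNA genes, Snhg9 and Hist1h2bh (5 and 14 reads at 96 h, against 10 and 4 at 48 h).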
